A study of Mus musculus with 8 samples.

Results

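The genes described here supply peptides to MHC class I molecules: H2-K1 and B2m of the class I molecule itself, Tap1, Tap2 and Tapbp of peptide transport and loading, Psmb8, Psmb9 and Psmb10 of the immunoproteasome, and Psme1 and Psme2 of the proteasome activator PA28. They were chosen by name, as the probe sets that the platform annotation gives exactly 1 of these 10 symbols, which found 18 of the 45101 probe sets and 9 of the 18194 genes with such a probe set. Psme2 has no value of its own, because the annotation gives its probe set a second symbol, Psme2b. The remaining 9 genes all passed the filter on dim probe sets.

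Islets were taken by laser capture from NOD.Scid mice, which have the autoimmune-prone NOD background and make no mature T or B cells, which leaves myeloid cells and weakly functional NK cells as host leukocytes. In the diabetogenic arm, mice received CD4+ BDC2.5 transgenic T cells at day 0 and were studied at days 3, 4 and 8 (3 arrays). In the protected arm, mice received the same cells with anti-Ifng antibodies injected the day before (day -1) and again on day 2, and were studied at days 3, 4, 5 and 8 (4 arrays). Untreated NOD.Scid islets gave 1 array, and each array held pooled RNA from 5 mice, so that every arm and day has a single array. The BDC2.5 receptor recognises a beta cell antigen, and per the submitters' design text the antibody kept the mice from diabetes and the diabetogenic islets of day 5 were too edematous to dissect. No mice given a control antibody are described, and a captured islet holds whatever leukocytes and vessels lie inside it.

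Class I molecules display peptides from proteins made inside a cell, so that CD8+ T cells can inspect them. Proteasomes cut the proteins, the TAP transporter carries the peptides into the endoplasmic reticulum, and tapasin helps load them onto the heavy chain and beta-2 microglobulin. Interferon-gamma is known to raise the expression of most genes of this pathway, to replace the constitutive catalytic subunits of the proteasome with those of the immunoproteasome, and to increase class I on beta cells. The arms compared here differ in the antibody against that cytokine.

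Start-site sequences are shown for B2m, for Psmb8, for H2-K1 and for the stretch shared by Tap1 and Psmb9, since their values carry the comparison of the arms. The letters come from RefSeq (mouse build GRCm38.p6) and end at the base before the start site. Capitals mark matches, on either strand, to GAAANNGAA (a pair of interferon regulatory factor half-sites), TTCNNNGAA (a STAT gamma-activated site), TGACG (the core of the X2 box) or CCAAT (the Y box). These motifs were chosen after the sequences had been seen, and no match shown overlaps another.
B2m, chr2:122147437-122147686, plus strand: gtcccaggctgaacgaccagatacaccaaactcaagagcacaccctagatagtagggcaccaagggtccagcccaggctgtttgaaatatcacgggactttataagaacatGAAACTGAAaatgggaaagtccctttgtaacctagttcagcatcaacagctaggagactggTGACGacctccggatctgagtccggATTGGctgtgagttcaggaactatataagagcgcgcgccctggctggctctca
Psmb8, chr17:34197945-34198194, plus strand: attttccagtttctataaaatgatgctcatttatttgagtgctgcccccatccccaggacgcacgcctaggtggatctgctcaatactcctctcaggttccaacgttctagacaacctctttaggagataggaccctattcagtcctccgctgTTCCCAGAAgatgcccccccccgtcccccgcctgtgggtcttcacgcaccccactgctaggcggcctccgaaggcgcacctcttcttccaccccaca
H2-K1, chr17:34000348-34000597, minus strand: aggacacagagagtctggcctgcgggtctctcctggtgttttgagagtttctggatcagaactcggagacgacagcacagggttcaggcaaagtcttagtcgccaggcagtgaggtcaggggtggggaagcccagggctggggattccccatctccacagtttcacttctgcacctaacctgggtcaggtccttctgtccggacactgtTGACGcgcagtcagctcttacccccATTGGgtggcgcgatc
Tap1 and Psmb9, between their start sites, chr17:34187331-34187555, plus strand: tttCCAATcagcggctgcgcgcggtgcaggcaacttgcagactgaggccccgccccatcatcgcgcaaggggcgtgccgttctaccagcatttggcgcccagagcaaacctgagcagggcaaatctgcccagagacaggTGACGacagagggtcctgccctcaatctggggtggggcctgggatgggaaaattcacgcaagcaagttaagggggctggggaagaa

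Of the sequences shown, that of B2m holds GAAACTGAA at -139 to -131 from its start site, a pattern that 7.13% of 32851 mouse promoter windows of 250 bases hold. TGACG and CCAAT, held by 17.8% and 33.8% of those windows, both occur before B2m and H2-K1 and in the stretch between Tap1 and Psmb9. That stretch of 225 bases separates start sites that face away from each other, so the same letters lie before both genes. Psmb8 holds TTCCCAGAA at -97 to -89, a match to TTCNNNGAA, which 7.02% of windows hold. Psmb9, Tap1, Psmb8 and Tap2 are neighbours in that order on chromosome 17, where H2-K1 and Tapbp also lie. A match is a run of letters in the reference strain and not a measured binding site, and NOD alleles can differ from it. Variants of these patterns were not searched, so the lack of a match does not show that a site is absent. H2-K1 has 2 promoter windows, and only the first is shown.

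The share of probe sets reaching 8 times their array's median varied. It was 4.74% in diabetogenic and 5.34% in protected islets on day 3, 0.850% and 2.23% on day 4, and 2.00% and 3.09% on day 8. Protected islets of day 5 had 3.85% and untreated islets 4.74%. Spiked hybridisation controls had medians of 580 to 1822 on the 5 arrays of days 4 to 8 and of 1.40 to 2.56 on both day 3 arrays and the untreated array. Differences of days 4 to 8 from day 3 or from untreated islets cannot be told apart from this split of the arrays. The same holds for the fits of each arm against untreated islets and of the change per day. The beta cell genes Ins2 and Iapp were bright on every array, at 3409 to 6359 and at 99.7 to 1143. Other beta cell markers were not. Slc2a2 had 161 in untreated islets and 3.79 and 1.76 in diabetogenic islets of days 4 and 8, and G6pc2 165.8, 1.16 and 4.09. Over the 6 tested beta cell markers, the median difference from untreated islets was -3.13 and -2.42 on those arrays. It was -2.16, -1.34 and -1.45 in protected islets of days 4, 5 and 8. On day 3 the 3' to 5' ratio of Gapdh was 9.11 in diabetogenic and 8.49 in protected islets. It was 2.78 and 10.5 on day 4, and 19.03 and 10.8 on day 8. That of Actb ran from 1.86 on the untreated array to 24.2 on the protected array of day 5.

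On day 3, every class I processing gene was brighter in diabetogenic than in protected islets. The step was largest for Tap1 (3.27-fold), Psmb9 (2.92-fold), B2m (2.72-fold), Psmb10 (2.46-fold) and Psmb8 (2.37-fold), smaller for Tap2 (1.79-fold), Tapbp (1.78-fold) and Psme1 (1.64-fold), and smallest for H2-K1 (1.18-fold). Thus 5 of 9 genes were at least 2-fold higher, whereas 1.34% of the 16397 genes tested were, none was at least 2-fold lower (0.506% of all genes were), and the median difference was 1.24 against -0.02 over all genes. Differences and folds are on the scale of log2(intensity + 2.155), which understates those of dim genes. A day has 1 array per arm, so these differences have no replicate check and no test, and those of days 4 and 8 went both ways.

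**Figure D1:**
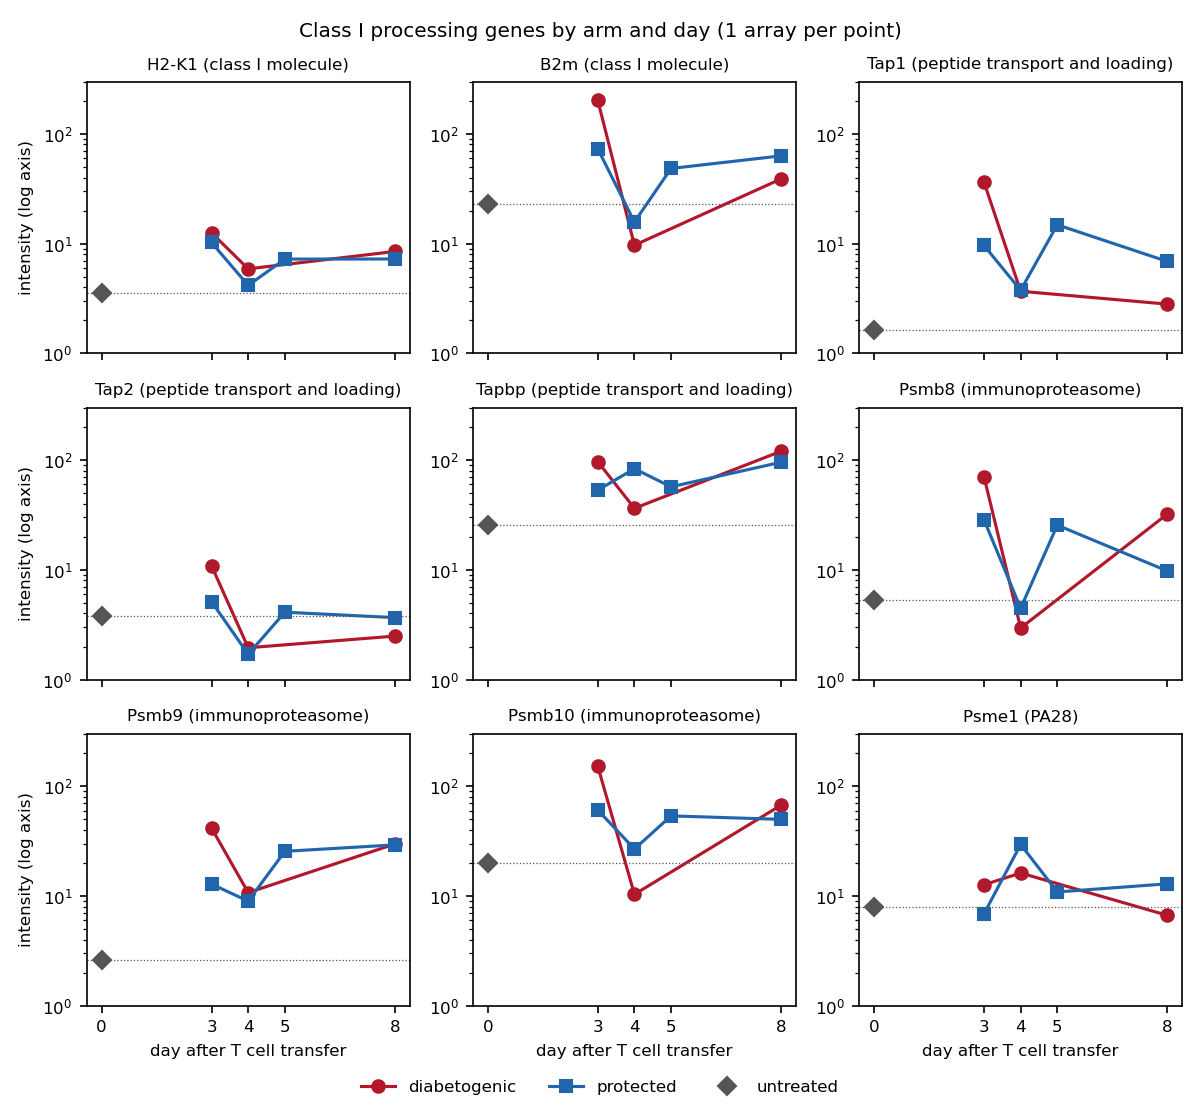
Intensity (log axis, linear units as deposited) of each of the 9 genes against the day after T cell transfer, with 1 array per point. Red circles are diabetogenic islets, blue squares protected islets, and the grey diamond and dotted line the untreated array. At day 3 the red point lies above the blue point in all 9 panels, while at day 4 the red point lies above in 3.

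The plot of intensities by day shows each gene's level on its own probe set. Levels of different genes cannot be set against each other, since probe sets bind with different strength. In bulk islet RNA, fewer cells of a type and less RNA per cell cannot be told apart.

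B2m encodes beta-2 microglobulin, the light chain that every classical class I molecule needs to reach the surface. It had 203, 9.67 and 38.9 intensity units in diabetogenic islets of days 3, 4 and 8, against 73.1, 15.8, 48.4 and 63.0 in protected islets of days 3, 4, 5 and 8 and 22.99 in untreated islets. The diabetogenic array of day 3 was the brightest of the 8, the day 4 arrays of both arms lay under the untreated level (the protected one lay above it by 0.11 after quantile normalization), and the arms overlapped. A second B2m probe set gave 89.1, 6.89 and 26.1 in diabetogenic, 42.3, 9.24, 22.7 and 16.9 in protected and 11.1 in untreated islets. Its arm difference had the same sign on days 3 (1.04) and 4 (-0.33) and the opposite sign on day 8, with 0.57 against -0.67 for the brighter probe set.

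H2-K1 encodes the heavy chain of the K molecule, which holds the peptide. It had 12.5, 5.89 and 8.48 intensity units in diabetogenic islets of days 3, 4 and 8, 10.2, 4.16, 7.23 and 7.24 in protected islets of days 3, 4, 5 and 8, and 3.52 in untreated islets. All 7 injected arrays lay above the untreated array, the diabetogenic array was the higher one on each matched day, and the arms overlapped across days. All 4 probe sets of H2-K1 are of a type that can bind transcripts of related class I genes. One of the others, with the higher mean intensity over the 8 arrays (8.85, against 7.41 for the one used, which has the higher mean on the log2 scale), and with 27.7 and 15.6 in diabetogenic and protected islets on day 3 and 5.98 in untreated islets, gave arm differences of 0.75, 0.05 and -0.81 on days 3, 4 and 8. With the tested probe sets averaged, the day 8 arm difference of H2-K1 changed sign to -0.16, and the diabetogenic array of day 8 lay under the untreated array by the same amount, as did the protected arrays of days 4 (-0.05) and 8 (-0.001) by less.

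Tap1 encodes a subunit of the peptide transporter. Its intensity was 36.4, 3.68 and 2.81 in diabetogenic islets of days 3, 4 and 8, 9.62, 3.76, 14.8 and 6.88 in protected islets of days 3, 4, 5 and 8, and 1.63 in untreated islets. Every injected array exceeded the untreated one, the diabetogenic array stood highest on day 3 and lowest of the injected arrays on day 8, and the arms overlapped. The other 3 Tap1 probe sets were dim, with means of 2.40 to 3.34 over the arrays. Averaging those that passed the filter with the bright one took the day 3 arm difference to 0.60, against 1.71 for the bright one alone, and put the diabetogenic array of day 8 under the untreated array, at -0.22.

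Tap2, the partner of Tap1 in the transporter, was dim throughout. It had 10.9, 1.95 and 2.49 intensity units in diabetogenic islets of days 3, 4 and 8, 5.13, 1.70, 4.11 and 3.67 in protected islets of days 3, 4, 5 and 8, and 3.82 in untreated islets. Only the diabetogenic array of day 3 and the protected arrays of days 3 and 5 lay above the untreated array, and the arms overlapped.

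Tapbp encodes tapasin, which bridges the transporter and the empty class I molecule. Its intensity was 96.7, 36.4 and 120.4 in diabetogenic islets of days 3, 4 and 8, 53.3, 83.4, 57.1 and 95.6 in protected islets of days 3, 4, 5 and 8, and 25.9 in untreated islets. Each injected array lay above the untreated array, and the arms overlapped. The diabetogenic array was the lower one on day 4, by 1.15 on the log2 scale, but the higher one by 0.60 after quantile normalization between arrays.

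Psmb8 encodes the immunoproteasome subunit that takes the place of Psmb5. It had 70.6, 2.95 and 32.2 intensity units in diabetogenic islets of days 3, 4 and 8, 28.6, 4.47, 25.5 and 9.76 in protected islets of days 3, 4, 5 and 8, and 5.27 in untreated islets. Both arrays of day 4 lay under the untreated level, the other 5 injected arrays lay above it, and the arms overlapped. The second Psmb8 probe set gave 28.0, 3.41 and 22.3 in diabetogenic islets, 10.1, 5.70, 17.5 and 20.2 in protected islets and 2.60 in untreated islets. Both probe sets put the day 3 arm difference near the same size (1.24 and 1.30), but the day 8 difference of 1.53 on the brighter one was 0.13 on the other.

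Psmb9, which takes the place of Psmb6, was low in untreated islets and higher on every injected array. It gave 41.6, 10.7 and 29.8 in diabetogenic islets of days 3, 4 and 8, 12.9, 8.98, 25.6 and 29.3 in protected islets of days 3, 4, 5 and 8, and 2.62 in untreated islets. The arms differed on day 3 and lay close together on days 4 and 8, where the log2 differences were 0.21 and 0.03, the second of which turned to -0.07 with median centring and to -0.14 with scaling to the 75th percentile.

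Psmb10, which takes the place of Psmb7, had 153, 10.4 and 67.4 intensity units in diabetogenic islets of days 3, 4 and 8, 60.8, 26.8, 53.8 and 49.95 in protected islets of days 3, 4, 5 and 8, and 19.8 in untreated islets. The diabetogenic array of day 4 was the only injected array under the untreated level, and the arms overlapped. On day 4 Psmb10 was lower in diabetogenic than in protected islets by 1.21 on the log2 scale.

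Psme1 encodes the alpha subunit of PA28, a ring that opens the proteasome core. It departed from the pattern of the other genes, with 12.7, 16.2 and 6.67 in diabetogenic islets of days 3, 4 and 8, 6.88, 29.5, 10.9 and 12.9 in protected islets of days 3, 4, 5 and 8, and 8 in untreated islets. Its brightest array was the protected one of day 4, and 2 of the 7 injected arrays, the diabetogenic array of day 8 and the protected array of day 3, lay under the untreated array.

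**Figure D2:**
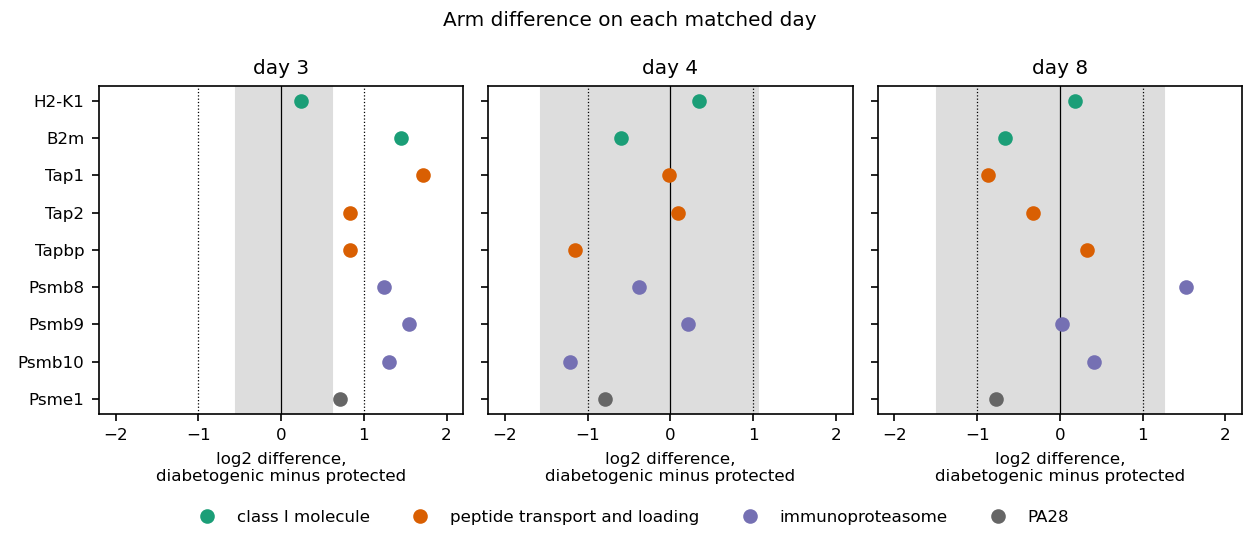
Log2 difference (diabetogenic minus protected) of each gene on the 3 matched days, with 1 pair of arrays per day and points coloured by role. Grey bands span the 5th to 95th percentile of all 16397 genes, and dotted lines mark 2-fold. All points but H2-K1 lie to the right of the band on day 3, where it runs from -0.54 to 0.62, and 1 point (Psmb8) lies outside it on day 8.

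The plot of arm differences groups the genes by role. The 3 immunoproteasome genes averaged 1.36, with a range of 1.24 to 1.54. Transport and loading averaged 1.13, from 0.84 to 1.71, and the class I pair averaged 0.84, from 0.24 for H2-K1 to 1.44 for B2m. Psme1 stood at 0.71. The order of the transport and loading genes over the class I pair rests on the probe sets used, since averaging put Tap1 at 0.60, Tap2 at 0.84 and Tapbp at 0.46, beside H2-K1 at 0.36 and B2m at 1.24.

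Set against B2m on day 3, the arm difference of Tap1 was larger by 0.27 and that of Psmb9 by 0.10, and those of Psmb10 and Psmb8 were smaller, at -0.14 and -0.20. Tap2 and Tapbp were each at -0.61 against B2m, Psme1 at -0.73 and H2-K1 at -1.20. After quantile normalization the direction turned for both Tap1 (1.40, against 1.72 for B2m) and Psmb9 (1.31), and with averaged probe sets it turned for Tap1 (0.60, against 1.24 for B2m). Set against the H2-K1 probe set used, every other gene had the larger arm difference on day 3, from 0.47 for Psme1 to 1.46 for Tap1. The H2-K1 probe set with the higher mean intensity had a day 3 difference of 0.75, above the 0.71 of Psme1. The 3 immunoproteasome genes thus lay between -0.20 and 0.10 relative to B2m and between 0.998 and 1.30 relative to H2-K1. The class I pair itself is split by 1.20, so the comparison turns on which of the pair is taken, and no test of these differences exists with 1 array per arm.

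Few genes had a larger difference on day 3 than the leading ones. The share of the 16397 genes with a larger difference was 0.293% for Tap1, 0.366% for Psmb9, 0.433% for B2m, 0.610% for Psmb10 and 0.726% for Psmb8. It was 2.14% for Tap2, 2.19% for Tapbp, 3.48% for Psme1 and 21.7% for H2-K1. For Tap1 it was 4.31% with averaged probe sets. After quantile normalization between arrays, 5 of 9 genes were again at least 2-fold higher (1.07% of all genes).

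Cell type markers went both ways between the arms on day 3. The 5 leukocyte markers summed to 213 in diabetogenic and 227 in protected islets, against 30.7 in untreated islets, with 3 of 5 brighter in the diabetogenic array. The 7 macrophage and monocyte markers summed to 142 in diabetogenic and 202 in protected islets, against 51.1 in untreated islets, with 1 of 7 brighter in the diabetogenic array. For the 6 T cell markers the sums were 30.3 in diabetogenic, 33.1 in protected and 15.2 in untreated islets, with 3 of 6 brighter in the diabetogenic array. Single markers differed by up to -0.86 (Cd3e) in one direction and 0.71 (Ptprc) in the other. No marker of these lists was at least 2-fold apart between the arms on day 3. The defining T cell genes Cd3e and Cd4 were dim on both day 3 arrays, at 3.19 and 1.66 in diabetogenic and 7.56 and 1.81 in protected islets.

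**Figure D3:**
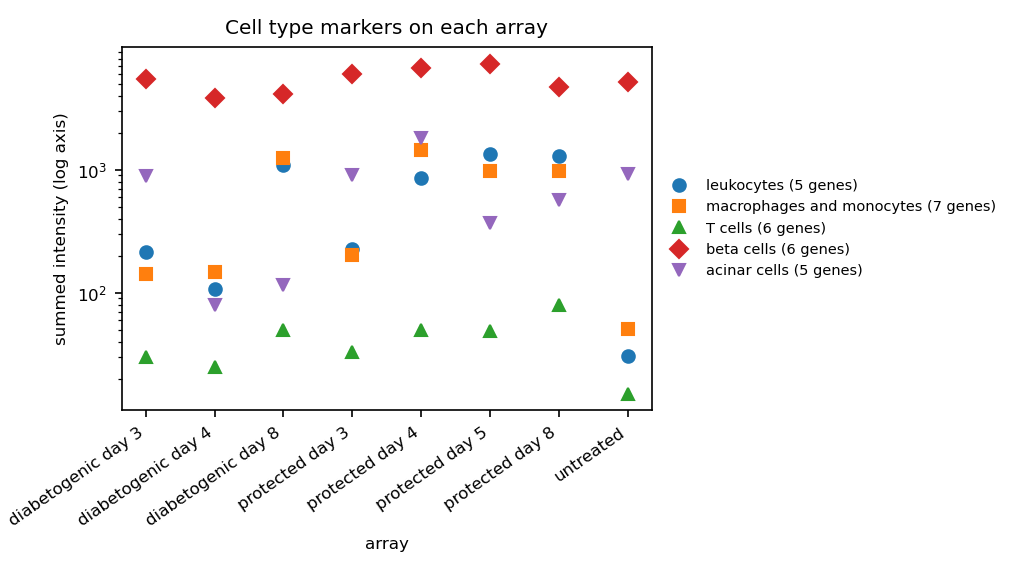
Summed intensity (log axis) of marker lists on each of the 8 arrays, with 1 symbol per list. Leukocyte and macrophage sums lie close together on the 2 arrays of day 3 and far apart on those of day 4, and acinar markers are lowest on the diabetogenic array of day 4.

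On day 4 the same genes split, with 3 of 9 higher and 6 of 9 lower in diabetogenic islets, among them Tap1 at -0.02, which turned to 0.03 with scaling to the 75th percentile. None was at least 2-fold higher (5.78% of all genes were) and 2 were at least 2-fold lower (14.1% of all genes were), namely Psmb10 and Tapbp, the second of which changed direction with quantile normalization. The median difference was -0.38, against -0.13 over all genes. These arrays also stood far apart in tissue markers (the plot of marker sums). Acinar markers summed to 79.2 in diabetogenic and 1805 in protected islets, macrophage markers to 147 and 1449, and leukocyte markers to 107 and 850. Most of the macrophage sum was Csf1r (114 in diabetogenic and 1386 in protected islets) and most of the leukocyte sum Laptm5 (85.6 and 741), and 2 of the 7 macrophage markers and 3 of the 5 leukocyte markers were at least 2-fold lower in diabetogenic islets. The share of bright probe sets differed as well, as given above, and the part of these differences in the day 4 values was not tested.

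On day 8, 5 of 9 genes were higher and 4 of 9 lower in diabetogenic islets. Psmb8 was the 1 gene at least 2-fold higher (9% of all genes were), at 2.89-fold, and none was at least 2-fold lower (13.9% of all genes were). The second Psmb8 probe set did not show that step, as described above. Tap1 was lower by 0.86, Psme1 by 0.77 and B2m by 0.67 on the log2 scale, while Psmb10 was higher by 0.42 and Tapbp by 0.33. With the tested probe sets of each gene averaged, B2m lay at -0.05 and no gene was 2-fold higher.

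Taking the 3 matched days as replicates, the arms were compared with limma over 6 arrays with day as a block, which asks whether a difference holds across days. Of 16397 genes, 18 (0.11%) passed an adjusted p of 0.05, and 0 of the 9 class I processing genes did, their lowest unadjusted p being 0.0760, for Psmb8. Psmb8 had the largest estimate, 0.80 ± 0.44 (SE, 3 pairs of arrays, limma adjusted p = 0.599). Its means on the log2 scale were 4.55 ± 1.98 (SD, n = 3) in diabetogenic and 4.01 ± 1.05 (SD, n = 4) in protected islets. The protected mean includes the array of day 5, which the fit left out. Psmb9 followed with 0.59 ± 0.45 (SE, limma adjusted p = 0.706), the only other estimate above 0.5, and its diabetogenic array was the higher one on all 3 days. For B2m the estimate was 0.06 ± 0.57 (SE, limma adjusted p = 0.985), with a 95% interval of -1.10 to 1.22.

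The other estimates were 0.28 ± 0.40 for Tap1, 0.26 ± 0.36 for H2-K1, 0.20 ± 0.34 for Tap2, 0.17 ± 0.58 for Psmb10, 0.00 ± 0.67 for Tapbp and -0.28 ± 0.41 for Psme1, each with its SE, and their limma adjusted p-values ran from 0.854 to 0.998. These intervals are wide: that of Psmb8 reached from -0.09 to 1.69, so the fit neither separates the arms nor shows that they were alike. Without the day 3 pair, B2m (-0.63), Tap1 (-0.44), Tap2 (-0.12), Tapbp (-0.41) and Psmb10 (-0.40) all had negative estimates. Leaving out a pair moved Psmb8 between 0.43 (without day 8) and 1.39 (without day 4), Psmb9 between 0.12 (without day 3) and 0.88 (without day 8), and Psme1 between -0.78 (without day 3) and -0.03 (without day 4). The change of the arm difference per day, fitted over the 7 injected arrays, gave 0 of 16397 genes (0%) with limma at an adjusted p of 0.05 and 326 at an unadjusted p under 0.05. For the 9 genes it lay between -0.43 ± 0.31 per day for Tap1 and 0.18 ± 0.46 per day for Psmb8 (SE, limma adjusted p = 0.99996 for both). Leaving out 1 array moved the Tap1 value between -2.71 (without the diabetogenic array of day 8) and -0.05 (without that of day 3).

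**Figure D4:**
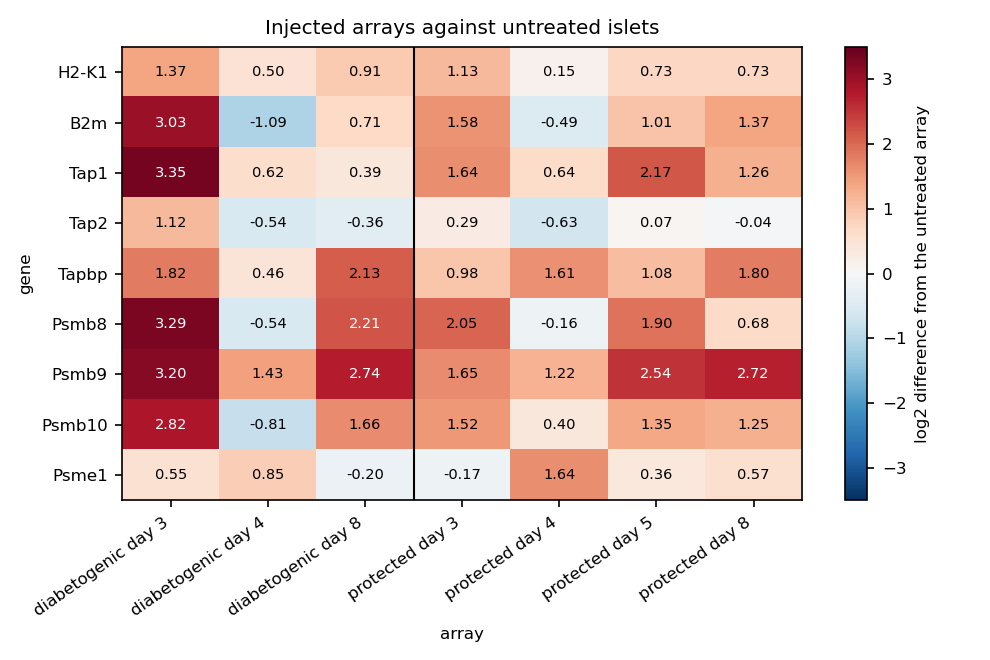
Log2 difference of each gene on each of the 7 injected arrays from the 1 untreated array, printed in each cell and coloured from blue (lower) to red (higher). H2-K1, Tap1, Tapbp and Psmb9 are positive in every column, the diabetogenic day 3 column is positive throughout, and the day 4 columns are the palest for the immunoproteasome genes.

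Against untreated islets, most of the 9 genes were brighter on both day 3 arrays and on the later protected arrays, although none passed the test described further on. Over the constitutive 20S core, the median difference from untreated islets in the fit over all days was -0.97 in diabetogenic and -0.43 in protected islets. On day 3 alone that median was also above untreated, at 0.52 in diabetogenic and 0.21 in protected islets. On day 3, 8 of 9 reached 2-fold or more in diabetogenic islets (2.81% of all genes did) and 6 of 9 in protected islets (2.2% of all genes were). Tap1 stood 10.2-fold above untreated islets in the diabetogenic and 3.11-fold in the protected array of that day, Psmb8 9.80-fold and 4.14-fold, Psmb9 9.16-fold and 3.14-fold, B2m 8.14-fold and 2.99-fold, and Psmb10 7.05-fold and 2.87-fold. The Tap1 folds are taken against an untreated intensity of 1.63, under the 25th percentile of that array (2.13), and were 2.06 and 1.36 with averaged probe sets. Those of Psmb9 are taken against 2.62, under that array's median of 3.42. Averaging also took the 2-fold counts to 6 of 9 in diabetogenic and 4 of 9 in protected islets, and multiplying the pseudocount by 4 took that of protected islets to 3 of 9. H2-K1 stood at 2.59-fold in diabetogenic and 2.18-fold in protected islets. All comparisons with untreated islets share the 1 untreated array.

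On the later days fewer of the genes reached 2-fold above untreated in diabetogenic islets, and in protected islets the count was lower on days 4 and 8 but not on day 5. The later arrays also differ from the day 3 and untreated arrays in their spiked controls, which cannot be told apart from the day. The counts were 1 of 9 in diabetogenic islets of day 4 (9.81% of all genes; 3 of 9, Tapbp, Psmb9 and Psme1, after quantile normalization) and 4 of 9 in those of day 8 (14.3%), and in protected islets 3 of 9 on day 4 (10.1%), 6 of 9 on day 5 (9.77%) and 5 of 9 on day 8 (9.76%). The protected islets of day 5, which have no diabetogenic counterpart, held Psmb9 at 5.80-fold, Tap1 at 4.49-fold and Psmb8 at 3.73-fold above untreated. B2m was 2.01-fold and Psmb10 2.55-fold above untreated in the same array. With the tested probe sets of each gene averaged, the count in protected islets was 3 of 9 on both day 5 and day 8.

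Psmb9 stood farthest from untreated islets on 4 of the 5 later arrays, the exception being the protected array of day 4, where Psme1 and Tapbp stood farther. Its untreated intensity was 2.62, under that array's median of 3.42. After quantile normalization Tapbp (2.56) also stood farther than Psmb9 (1.92) on the diabetogenic array of day 4. Psmb9 was 2.70-fold and 6.69-fold above in diabetogenic islets of days 4 and 8, and 2.33-fold, 5.80-fold and 6.58-fold above in protected islets of days 4, 5 and 8. Relative to B2m, its distance from untreated was 2.52 and 2.04 on the log2 scale in diabetogenic islets of days 4 and 8 and 1.71, 1.53 and 1.34 in protected islets of days 4, 5 and 8. On day 3 it was 0.17 in diabetogenic and 0.07 in protected islets. Averaged over the 3 subunits, the immunoproteasome genes lay above untreated by 3.10, 0.03 and 2.21 in diabetogenic islets of days 3, 4 and 8 and by 1.74, 0.49, 1.93 and 1.55 in protected islets of days 3, 4, 5 and 8. The class I pair averaged 2.199, -0.29 and 0.81 in the diabetogenic arrays and 1.35, -0.17, 0.87 and 1.05 in the protected arrays of the same days.

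The summed signal of the leukocyte markers was higher on every injected array than on the untreated array. It was 107 to 1100 in diabetogenic and 227 to 1348 in protected islets, against 30.7 in untreated islets, and that of macrophage markers was 142 to 1249 in diabetogenic and 202 to 1449 in protected islets, against 51.1 in untreated islets. The leukocyte sum was 213 on the diabetogenic array of day 3 and 850 on the protected array of day 4. These arrays lie on different sides of the split in spiked controls. Laptm5 (111 and 741) was the largest part of both sums. Coro1a, Cd52 and Cd53 were also higher on the second of these arrays, while Ptprc was lower (39.4 and 4.62). The leukocyte sum was higher on day 8 than on day 3 in both arms. Of its genes, Cd53 was lower on day 8 in both arms and Ptprc in the diabetogenic arm. In the diabetogenic arm every class I processing gene but Tapbp (96.7 and 120.4) was brighter on day 3 than on day 8. After quantile normalization Psmb9 was also higher on day 8 (2.81 and 3.02 above untreated islets). This contrast of days cannot be told apart from the split in spiked controls. The part of infiltrating cells in the distance from untreated islets was not tested.

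In the fit of all 8 arrays, 0 of 16397 genes (0%) passed in diabetogenic against untreated islets with limma at an adjusted p of 0.05, with 450 at an unadjusted p under 0.05. In protected against untreated islets it was also 0 (0%), with 371. This fit takes the spread between days within an arm as the error and assumes that the lone untreated array varies in the same way. Psmb9 had the largest estimate among the 9 in both, 2.46 ± 0.97 (SE, 95% interval 0.39 to 4.52, limma adjusted p = 0.894) in diabetogenic and 2.03 ± 0.94 (SE, 95% interval 0.03 to 4.03, limma adjusted p = 0.9998) in protected islets. All 3 diabetogenic and all 4 protected arrays showed that direction. The estimate for B2m was 0.88 ± 1.42 in diabetogenic and 0.87 ± 1.37 in protected islets, and that for Tap1 was 1.45 ± 0.95 and 1.43 ± 0.92 (SE, limma adjusted p from 0.894 to 0.9998).

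**Figure D5:**
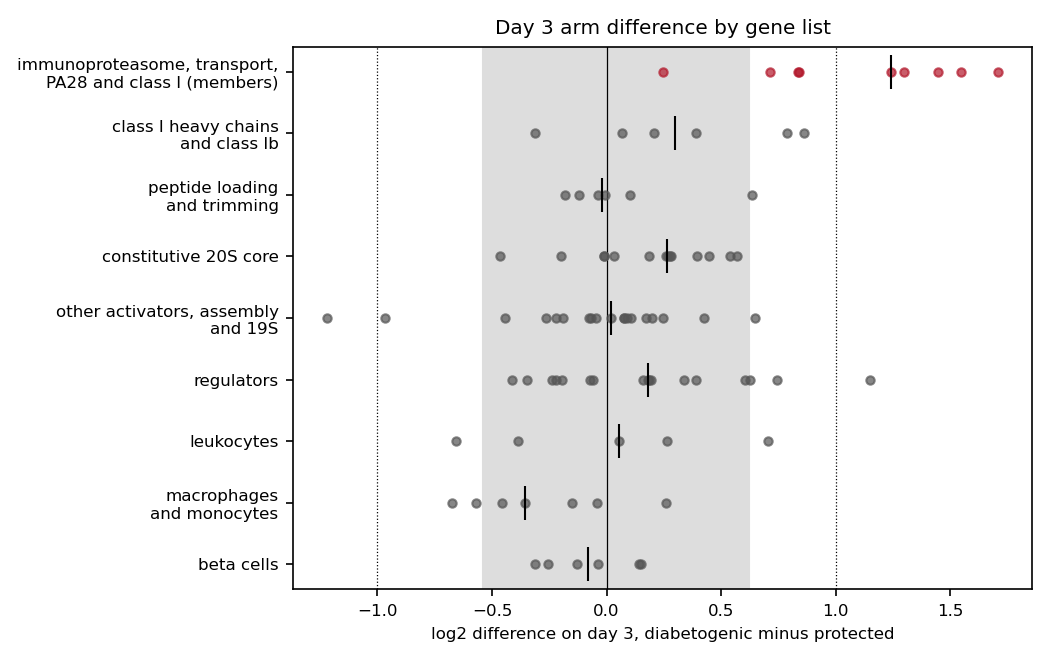
Log2 difference on day 3 (diabetogenic minus protected), with 1 point per gene and a black tick at each list's median. Shown are the class I processing genes and the tested genes of the pathway lists. Of the marker lists, those of leukocytes, macrophages and monocytes, and beta cells are shown. The grey band spans the 5th to 95th percentile of all genes, and dotted lines mark 2-fold. The 9 class I processing genes have a median of 1.24, and the constitutive 20S core a median of 0.26 with no gene past 2-fold.

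Other genes of the pathway were taken from lists by function (the plot of day 3 differences by list). None of them passed an adjusted p of 0.05 in any of the 4 limma fits. Among 14 subunits of the constitutive 20S core, the median on day 3 was 0.26 and 0 were at least 2-fold apart. The subunits that immunoproteasome assembly replaces were near equal or lower in diabetogenic islets on that day. Psmb5 had 39.3 and 39.6 intensity units in the diabetogenic and protected arrays, Psmb6 62.6 and 72.1, and Psmb7 6.26 and 9.45, differences of -0.01, -0.20 and -0.46, against 1.24, 1.54 and 1.30 for Psmb8, Psmb9 and Psmb10.

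Of the 19 other activators, assembly factors and 19S subunits the median on day 3 was 0.02, with 1 at least 2-fold lower. That was Psmd13, a lid subunit of the 19S particle, at 5.54 in diabetogenic and 15.8 in protected islets, and it was lower in the diabetogenic array on all 3 matched days (-1.47 ± 0.38, SE, limma adjusted p = 0.181). Pomp, the assembly chaperone of the core, had 81.1 and 50.9 on day 3, a difference of 0.65. Peptide loading and trimming genes had a median of -0.02 over 6 tested, in which Tapbpl, a tapasin-related editor, had the largest day 3 difference (0.63) and Calr and Canx, chaperones of the endoplasmic reticulum, lay at -0.18 and -0.01.

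Of 14 class I heavy chain and class Ib genes 6 were tested, with a median of 0.30 on day 3. H2-D1, the second classical heavy chain, had 21.7, 2.28 and 10.03 in diabetogenic islets of days 3, 4 and 8, 11.7, 3.59, 3.96 and 5.08 in protected islets of days 3, 4, 5 and 8, and 4.08 in untreated islets. Its day 3 difference of 0.79 was larger than that of H2-K1 and smaller than that of B2m, and neither it nor the largest, H2-Q10 at 0.86, reached 2-fold.

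Among 17 tested regulators the median on day 3 was 0.18, and Irf1, a transcription factor that acts on several genes of this pathway, was the 1 gene at least 2-fold higher. Irf1 had 42.9, 27.1 and 21.1 in diabetogenic islets of days 3, 4 and 8, 18.2, 16.1, 11.0 and 15.6 in protected islets of days 3, 4, 5 and 8, and 10.8 in untreated islets. Its matched-day estimate was 0.74 ± 0.45 (SE, limma adjusted p = 0.627). Nlrc5, the transactivator of class I genes, had 18.0, 39.9 and 45.1 in diabetogenic, 9.87, 51.8, 25.9 and 43.5 in protected and 5.33 in untreated islets of the same days. The Nlrc5 arm difference was 0.74 at day 3, in the direction of the 9 genes. For days 4 and 8 the values were -0.36 and 0.05. In both arms Nlrc5 was dimmer at day 3 than later, a contrast that cannot be told apart from the split in spiked controls. The part of Nlrc5 in the levels of the 9 genes was not tested. Ifng itself had 43.8, 17.4 and 3.8 in diabetogenic, 27.6, 15.9, 31.8 and 7.62 in protected and 1.92 in untreated islets.

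The 9 genes followed one another over the 8 arrays to different degrees. Pearson's r with the mean profile of the 9 genes, which includes the gene itself, only describes arrays that share their depth and tissue makeup. It was 0.94 for Psmb10, 0.92 for B2m, 0.89 for Psmb8 and Tap1, 0.88 for H2-K1, 0.87 for Psmb9, 0.77 for Tap2 and 0.70 for Tapbp. Psme1 stood apart, with -0.13. Between pairs, r was 0.94 for both B2m with Psmb10 and Psmb8 with Psmb10, 0.69 for the neighbours Tap1 and Psmb9, and 0.83 for Tap1 with Tap2.

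The 5 other genes most like the mean profile were Trim30a (r = 0.97), Ifi47 (0.96), Lrrtm2 (0.95), Ms4a4c (0.94) and Cd274 (0.94), each over 8 arrays. Ifi47, an interferon-inducible GTPase, had 84.2, 7.32 and 27.7 in diabetogenic islets of days 3, 4 and 8, 16.3, 9.38, 18.2 and 18.9 in protected islets of days 3, 4, 5 and 8, and 7.21 in untreated islets. Cd274, the checkpoint ligand PD-L1, had 45.5, 4.54 and 9.23 in diabetogenic, 11.4, 2.96, 20.2 and 11.0 in protected and 3.09 in untreated islets of the same days. Both were brightest on the diabetogenic array of day 3 and dim on the arrays of day 4, as B2m and Psmb8 were. That likeness follows from how these genes were picked and is no separate result.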

How the data were processed

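The deposited table holds probe set intensity values on a linear scale, made by the authors. The labels' protocols record captured and amplified RNA (about 30 ng per pool), while the sources used here do not give how values were summarised and scaled. The class I processing genes, the gene lists and the tests were chosen with earlier results of these data known, and the single-day alternatives after seeing the data.

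From the deposited intensities, log2(intensity + 2.155) was computed, the constant being the median over arrays of the 25th percentile, so log2 values here derive from the authors' scale. Array medians lay within 0.21 on the log2 scale, so no scaling was added. Symbols came from the 2016 platform annotation. Probe sets with 1 symbol were kept if at or above the array median on at least 2 arrays, and reduced to the one with the highest mean log2 value per gene (16397 genes). limma 3.58.1 in R 4.3.3 (lmFit, eBayes with a variance trend, Benjamini-Hochberg, threshold 0.05) fitted the matched days with day as a block (2 residual and 30.4 prior degrees of freedom), each arm against untreated islets, and the arm difference per day. Because the prior outweighs a gene's own spread, standard errors rest mostly on genes of like level. Samples came from 1 pool each, so p-values measure the spread between days. Fits were tested on simulated data. Genes named are the 10 listed, the largest differences of each list, and the 5 most like the mean profile. The number of arrays limits precision.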

Additional observations from a re-analysis of the deposited data

Results flagged for a closer look

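Probe sets that the annotation gives 2 symbols were left out of every comparison, and 3 of them name a gene of the pathway. The one for Psme2b and Psme2, of which Psme2 is the beta subunit of PA28, had 65.65, 6.35 and 12.2 intensity units in diabetogenic islets of days 3, 4 and 8, 50.8, 13.8, 22.7 and 11.1 in protected islets of days 3, 4, 5 and 8, and 17.8 in untreated islets. Both day 3 arrays were brighter than any other array, so this probe set peaked on day 3 in both arms, unlike Psme1. The probe set for H2-K1 and H2-D1 reached 6.64 in protected islets of day 4, against 1.66 in untreated islets, and that for H2-Q5 and H2-K1 reached 10.07 in diabetogenic islets of day 3, against 6.68 in untreated islets. These values were picked out because an injected array exceeded the untreated array in data outside the comparisons, which chance can also give. In the 4 protected arrays no gene of the 9 had an array beyond Dixon's limit of 0.829.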

How the results depend on the processing

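No class I processing gene passed the threshold under any alternative: of 347 of their values 332 kept their direction and 15 reversed. The count of 18 genes between the arms became 8 with the pseudocount multiplied by 4, 1 with quantile normalization, 10 without the filter, 1 with the probe sets of a gene averaged (Ccl24 in both cases), 11 without a variance trend, 0 without the day block, and 32 to 69 leaving out a pair (day 3 out 69, day 4 out 32, day 8 out 40). For protected against untreated islets 0 became 1 with quantile normalization, with 75th percentile scaling and without the protected array of day 3, always Ccl17 (0 to 1 over arrays left out). The change per day gave 25 in place of 0 over the matched days with day as a block, none of them among the 9, and 0 to 3 leaving out an array. Reversed estimates between the arms were Tapbp at -0.043 with median centring and -0.044 with 75th percentile scaling, and Tap1 at -0.068 with averaged probe sets. Leaving out a pair of arrays gave -0.63 to 0.42 for B2m, -0.44 to 0.84 for Tap1, -0.12 to 0.46 for Tap2, -0.41 to 0.58 for Tapbp and -0.40 to 0.86 for Psmb10. Leaving out an array gave -0.19 to 1.87 for B2m and -0.45 to 0.38 for Tap2 in diabetogenic against untreated islets, -0.20 to 0.11 for Tap2 in protected against untreated islets, and -3.70 to 0.82 per day for Psmb8 in the change of the arm difference. The causes were not tested.

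Among single-day counts, chosen after seeing the data, day 3 gave 5 of 9 or 6 of 9 genes at least 2-fold higher with the pseudocount changed 4-fold either way and 4 of 9 with averaged probe sets. On day 8, scaling to the 75th percentile took the median of all genes to -0.22, against -0.10. On day 4 the count of 2 lower genes became 1 with the pseudocount multiplied by 4, with quantile normalization and with averaged probe sets. The comparison of the arms already pairs the arrays of a day, through the day block; replicate numbers, which the labels do not give, pair nothing. With 1 pool per arm and day, values near or under the array median, such as Tap2 on 5 of the injected arrays and Tap1 and Psmb9 in untreated islets, resolve no small difference.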
